A study of Rattus norvegicus with 47 samples.

Results

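The series concerns brain injury in the rat, and this account covers 8 arrays of cortex labelled ipsilateral at 24 h. Ipsilateral means the side of the injury in an injured rat. The 8 arrays carry the RNA extraction numbers 33 to 40. Arrays 37 to 40 (n = 4) were set against arrays 33 to 36 (n = 4), 8 of the 47 arrays of the series. The 2 runs of numbers were chosen by measured values: in an earlier look at the same arrays, 37 to 40 had a high mean of microglia marker genes and 33 to 36 did not. The labels give both runs the same tissue, side, time and treatment type ("wait"), and do not say whether any number stands for an injured or a sham-operated rat. No strain, age, sex or genotype was given in the sources used here, and nothing says that the arrays came from separate animals, so the spread between arrays may in part be technical. The arrays set beside them were contralateral cortex at 24 h (arrays 45 to 48 and 41 to 44), ipsilateral cortex at 4 h (5 to 8, and 1, 3 and 4) and contralateral cortex at 4 h (13 to 16 and 9 to 12). Because the split at 24 h was made on the readout, values of 37 to 40 against 33 to 36 are given here as a description with no test. Tests were run only between groups of the other arrays, with the spread estimated over all 31 cortex arrays, the 8 described here included.

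Microglia are the resident macrophages of the brain. After injury they and invading blood monocytes take up debris and make lysosomal, complement and Fc receptor proteins, while astrocytes become reactive, enlarge their vimentin filament network and secrete acute phase and matrix proteins. Chemokines such as Ccl2 draw monocytes into injured tissue, and dividing glia and vascular cells carry cell cycle transcripts that mature neurons largely lack. RNA of whole cortex mixes all these cells, and in it more cells of a type cannot be told apart from more RNA of that type per cell.

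Each array reports 1 signal per probe set, a group of short oligonucleotides against 1 transcript, on a linear scale that was already scaled to a common level. Signals below 185.8, the 25th percentile of all values, were raised to that floor and log2 was taken. Of 7592 probe sets tested, 6175 name 1 gene (4275 genes). Median signals ran from 789 to 795 on arrays 37 to 40 and from 665 to 779 on 33 to 36, without overlap, and the 3' to 5' ratio of the Gapdh control probes, a measure of RNA integrity, from 1.04 to 1.12 and from 1.06 to 1.14. Correlations between 2 arrays over all probe sets were 0.976 to 0.983 within 37 to 40, 0.975 to 0.984 within 33 to 36 and 0.966 to 0.98 between them. Markers of the tissue were checked: Neurod1, a factor of hippocampal granule cells, stood at 945 to 1896 on the 8 arrays, against 2789 to 5111 in the hippocampus arrays of the series. The neuropeptide gene Cck stood at 20364 to 37399, against 11497 to 18460 in hippocampus, while the synaptic gene Snap25, at 30262 to 40492 against 18085 to 37150, overlapped.

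A probe set was counted as higher when all 4 arrays of 37 to 40 lay above all 4 of 33 to 36 and the means differed by at least 2-fold, and as lower in the opposite case. By this rule 53 probe sets (34 genes, and 10 that no single gene name covers) were higher, 0.698% of those tested. Only 6 (5 genes and 1 unnamed) were lower, 0.079%. Without the size limit, 308 probe sets were higher without overlap (4.06%) and 140 lower (1.84%). Counts within gene lists below are to be read beside these shares of all probe sets. The same 2-fold rule in contralateral cortex at 24 h, arrays 45 to 48 against 41 to 44, counted 2 higher (0.0263%) and 0 lower (0%). In ipsilateral cortex at 4 h it counted 46 higher and 18 lower of the same 7592, with 3 arrays in 1 run, which eases the rule. Contralateral cortex at 4 h had 14 higher and 2 lower. Between arrays 37 to 40 and 33 to 36 the median difference over all probe sets was 0.02 log2 units. The scaling of all arrays to a common level keeps such a value near 0.

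**Figure D1:**
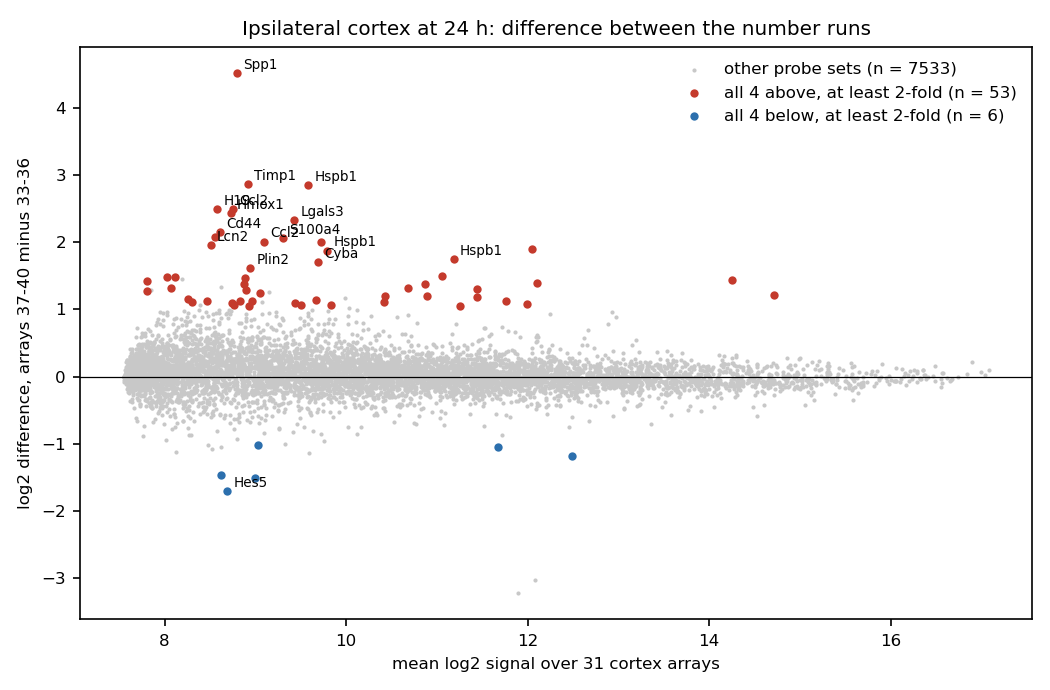
Log2 difference of arrays 37 to 40 minus arrays 33 to 36 in ipsilateral cortex at 24 h (vertical axis, log2 units) against the mean log2 signal over 31 cortex arrays (horizontal axis), 1 point per probe set. The 53 higher probe sets reach 4.52 for Spp1, and the 6 lower ones reach −1.70 for Hes5; grey points beyond the limit had overlapping arrays, among them both Ttr probe sets near −3.02.

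Over the 53 higher probe sets, the median of arrays 33 to 36 lay close to the contralateral side. These probe sets were chosen for arrays 33 to 36 lying below 37 to 40, so this says nothing of other probe sets. Of the 53, 43 had all 4 arrays of 37 to 40 above the highest of the 8 contralateral arrays at 24 h. In 25, all 4 arrays of 33 to 36 were inside the contralateral range, and in 22 at least 1 lay above it. The share of all probe sets that meet these conditions is not given here, so the counts describe the chosen members only. The median distance from the contralateral mean was 1.43 log2 units for arrays 37 to 40 and 0.05 for 33 to 36. In 2 genes singled out after their values were seen, Apom (apolipoprotein M, a lipid carrier) and Grk1 (rhodopsin kinase), the distance lay on the other side: all 4 arrays of 33 to 36 were below the lowest contralateral array. Apom averaged 9.46 ± 0.14 log2 signal on 37 to 40 and 8.22 ± 0.23 on 33 to 36 (SD, n = 4 each), against a contralateral mean of 9.26. Grk1 averaged 9.01 ± 0.24 and 7.89 ± 0.30, against 8.96.

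The arrays within a run were not equal. Array 38 was the highest of its run in 27 of the 53 probe sets, and array 35 the highest of its run in 34. The mean over the 53 probe sets, as log2 distance from the contralateral mean, was 1.51, 1.86, 1.56 and 1.52 on arrays 37, 38, 39 and 40, and −0.24, −0.16, 0.42 and 0.08 on arrays 33, 34, 35 and 36. Array 35 thus lay nearest to the other run. Since the probe sets were chosen for runs that do not overlap, a gap between the runs is given by that choice.

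**Figure D2:**
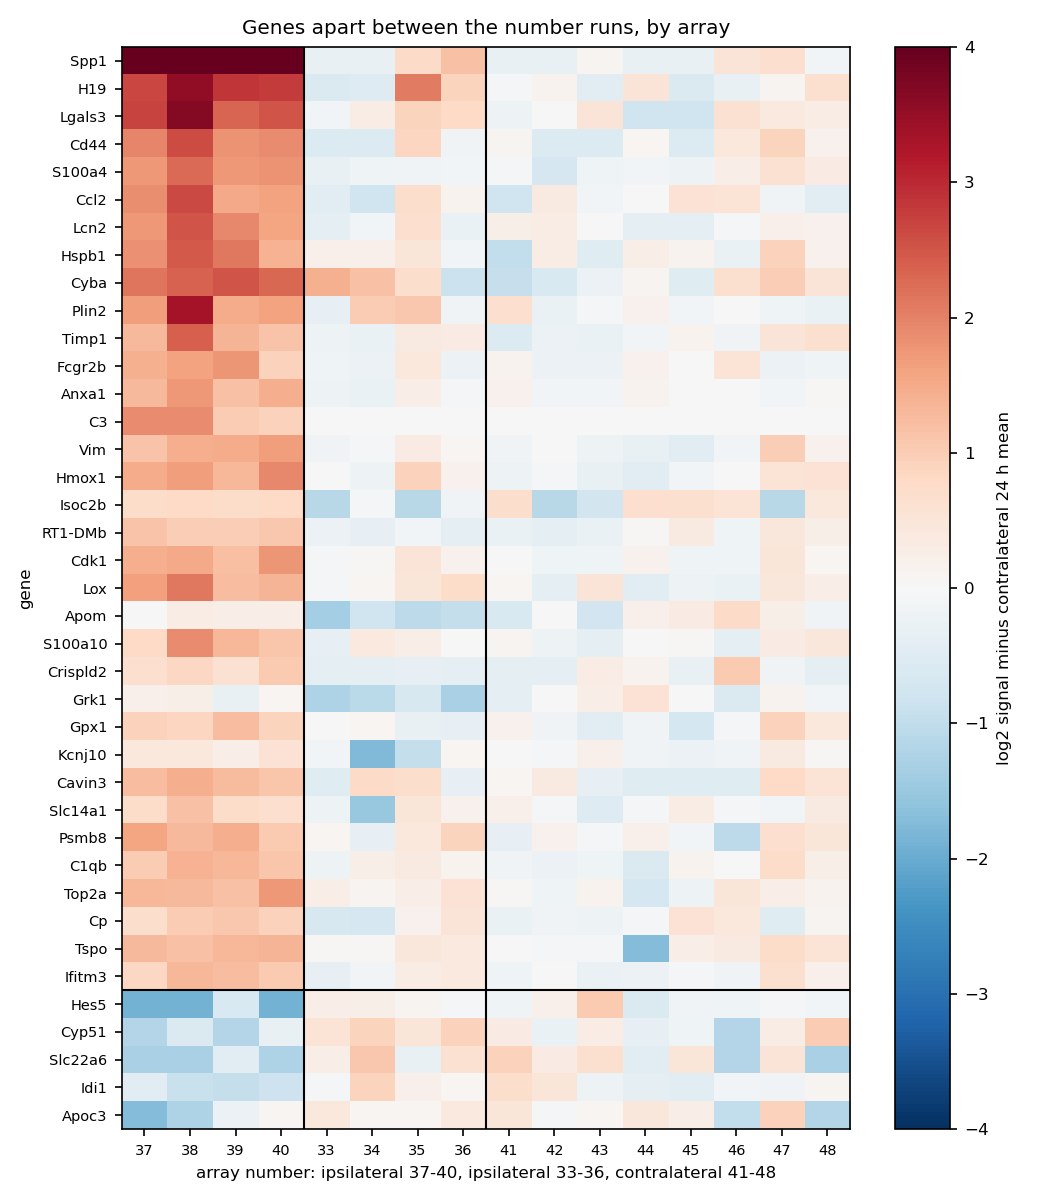
The 34 genes higher (top) and 5 genes lower (bottom) on arrays 37 to 40, as log2 signal minus the contralateral 24 h mean (colour, limited to 4 units either way, which Spp1 exceeds). Columns are arrays 37 to 40, then 33 to 36, then the 8 contralateral arrays 41 to 48; in most rows the ipsilateral 33 to 36 and contralateral columns are pale alike, and the Apom and Grk1 rows are blue on all 4 of arrays 33 to 36 and less so on a few contralateral arrays (lowest −0.77 for Apom, on array 43, and −0.57 for Grk1, on array 46).

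Phagocyte genes come first, because they set the split. With the 22 measured genes of the microglia and macrophage list used here, the mean distance from contralateral cortex was 0.82, 1.12, 0.85 and 0.79 log2 units on arrays 37, 38, 39 and 40, and 0.00, 0.07, 0.13 and 0.07 on arrays 33, 34, 35 and 36. The numbers on either side of the boundary, 37 and 36, thus had 0.82 and 0.07. Contralateral arrays ran from −0.15 to 0.24. Of the 22 genes, 5 met the 2-fold rule and 13 did not overlap, all of them higher, with a median difference of 0.63.

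Spp1 (osteopontin, a secreted phosphoprotein of activated macrophages) had the largest difference of all probe sets. Its signals were 9397, 9103, 4533 and 5015 on arrays 37, 38, 39 and 40, and 160, 116, 389 and 519 on arrays 33, 34, 35 and 36, with 21.6 to 369 over the contralateral arrays. The groups lay far apart, and arrays 33 and 34 were at the floor. The means were 12.70 ± 0.56 and 8.17 ± 0.76 log2 units (SD, n = 4 each), 23-fold apart.

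Lgals3 (galectin-3, a sugar-binding protein of phagocytes) read 2823, 5499, 2172 and 2514 on arrays 37, 38, 39 and 40, and 406, 533, 804 and 751 on arrays 33, 34, 35 and 36. Cyba, the p22phox subunit of the superoxide-producing oxidase, read 2041, 2405, 2654 and 2275 on 37 to 40, and 1254, 1057, 761 and 259 on 33 to 36. The 2 genes differed in how even the lower run was: Cyba was lowest on array 36, while Lgals3 was highest on arrays 35 and 36. The log2 differences were 2.34 (5.05-fold) and 1.71 (3.27-fold).

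Fcgr2b, an inhibitory receptor for immunoglobulin G, was 1.48 log2 units higher and C1qb, a chain of the complement starter C1q, 1.08. C1qb read 6027, 7809, 7467 and 6489 on arrays 37 to 40, against 2583, 3493, 3818 and 3272 on arrays 33 to 36. Its second probe set was 1.30 higher. Cd14, a co-receptor for bacterial lipopolysaccharide, stood just outside the rule at 1.99-fold, with 1172, 1166, 1292 and 1168 on arrays 37 to 40 and 641, 586, 576 and 603 on 33 to 36.

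Not every phagocyte marker stood apart. Aif1 (the microglial marker Iba1) was 0.68 and the fractalkine receptor Cx3cr1 0.53 log2 units higher without overlap. Ptprc (CD45, carried by all leukocytes) overlapped at −0.12, the lysosomal protease Ctss at 0.10, and the abundant secreted proteins Cst3 and Apoe at 0.05 and −0.04. Within this list Spp1 and Lgals3 differed most, C1qb met the 2-fold rule, and Aif1 and Cx3cr1 differed by less than 2-fold. Whether these differences come from more phagocytes or from more RNA per cell was not tested.

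**Figure D3:**
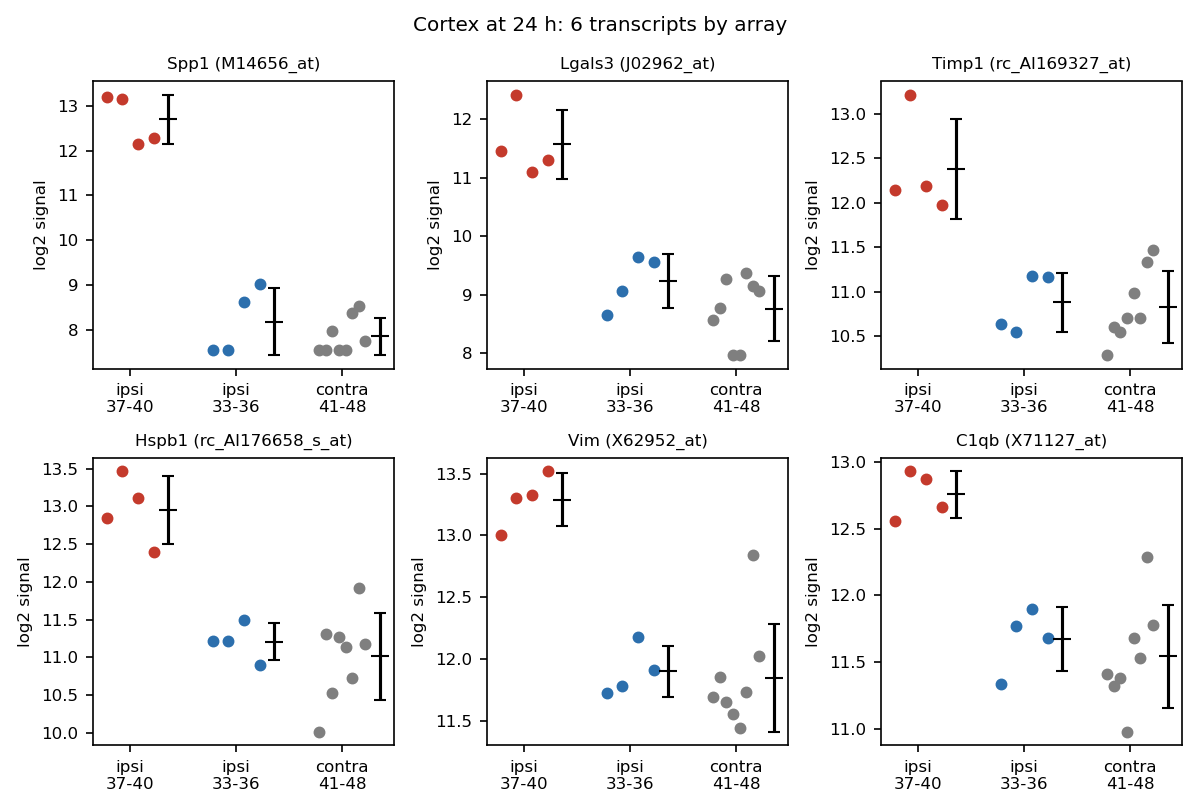
Log2 signal of 6 transcripts on each array of cortex at 24 h, ipsilateral arrays 37 to 40 (red), ipsilateral 33 to 36 (blue) and contralateral 41 to 48 (grey), with mean and SD as a bar beside each group. In all 6 the red points lie above every blue and grey point, and array 47 is the highest grey point for Vim and C1qb.

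Complement and interferon-responsive genes were also mostly higher. Of 9 measured complement and Fc receptor genes, 3 met the 2-fold rule, 5 did not overlap and all 9 had a positive difference (median 0.88). Of the 3, C1qb and Fcgr2b are also in the microglia and macrophage list, so the 2 lists are not separate evidence. C3, the central complement protein, read 684, 694, 372 and 352 on arrays 37 to 40, and 16.2, 21.2, 44.9 and 27.1 on 33 to 36. It was below the floor on all 4 arrays of 33 to 36 and all 8 contralateral arrays, so its difference of 1.43 is set by the floor and was 3.23 with the floor at the 10th percentile. A second C3 probe set overlapped at 0.26. C1r, a protease of the C1 complex, was 0.88 higher without overlap.

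Of 11 interferon response genes, 2 met the rule. Ifitm3, a membrane protein that blocks virus entry, read 3949, 5646, 5262 and 4666 on arrays 37 to 40, against 1775, 2074, 2729 and 2921 on 33 to 36. Psmb8, a subunit of the immunoproteasome, read 1810, 1508, 1675 and 1264, against 641, 483, 813 and 1120, and its partner Psmb9 was 0.76 higher without overlap. The groups did not overlap in any of the 3, but the classical interferon targets Mx1 (0.01), Gbp2 (0.03) and Irf7 (0.25) overlapped.

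Among 16 antigen presentation genes 1 (Psmb8) met the rule, with a list median of 0.17. The class II invariant chain Cd74 was 0.81 higher with overlapping arrays, the class II genes RT1-Ba and RT1-Da differed by 0.20 and 0.38, and class I light chain B2m by 0.12. RT1-DMb, a class II peptide-loading chain outside that list, read 3185, 2850, 2859 and 3054 on arrays 37 to 40, and 1217, 1147, 1322 and 1107 on 33 to 36. It was among the most even members within each run, with SDs of 0.08 and 0.11 log2 units around a difference of 1.32.

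Reactive astrocyte genes formed the other large group. Of 22 measured, 6 met the 2-fold rule (Cd44, Lcn2, Timp1, Vim, S100a10 and Cp), 11 were higher without overlap and 1 lower, with a median difference of 0.65. The list was read through the brightest probe set of each gene, which leaves out Hspb1, described below. The mean of the list over arrays, as distance from the contralateral mean, was 0.60 to 0.89 on arrays 37 to 40 and −0.10 to 0.23 on 33 to 36.

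Vim, the intermediate filament vimentin, read 8168, 10080, 10298 and 11708 on arrays 37 to 40, and 3364, 3528, 4638 and 3858 on 33 to 36. Cd44, a receptor for hyaluronan and osteopontin, read 1054, 1638, 950 and 999, against 89.4, 153, 491 and 246. Lcn2 (lipocalin-2, which binds bacterial iron carriers) read 805, 1387, 932 and 737, against 103, 224, 392 and 204. All 3 separated the runs, by 1.39, 2.16 and 1.96 log2 units, and in Cd44 and Lcn2 array 35 was the closest of the lower run.

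Timp1, an inhibitor of matrix metalloproteinases, had 2 probe sets past the rule. The dimmer read 2921, 6287, 2727 and 2378 on arrays 37 to 40, and 44.9, 303, 907 and 824 on 33 to 36, a difference of 2.87. The brighter differed by 1.5. Both were highest on array 38.

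S100a4, a calcium-binding protein, read 1888, 2733, 1904 and 1996 on arrays 37 to 40, and 468, 508, 523 and 526 on 33 to 36, a 4.16-fold difference with an SD of only 0.08 log2 units in the lower run. S100a10, the partner of annexin A2, was 1.19 higher, and Anxa1, a phospholipid-binding annexin, 1.48 (0.99 in a second probe set that lay just outside the rule). Of 23 annexin, S100 and actin-linked genes, 9 were higher without overlap and 0 lower. Several were moderate in size: Anxa2 differed by 0.73, the Arp2/3 subunit Arpc1b by 0.64, the tropomyosin Tpm4 by 0.60 and the capping protein Capg by 0.57.

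Homeostatic genes of astrocytes did not follow. The glutamate transporters Slc1a2 and Slc1a3 differed by 0.16 and −0.11, and glutamine synthetase Glul by 0.20. Kcnj10, the astrocytic potassium channel Kir4.1, met the rule at 1.11, but it read 3098, 3094, 2724 and 3422 on arrays 37 to 40 and 2113, 677, 1175 and 2427 on 33 to 36, so that 2 arrays of the lower run lay below the contralateral range of 1967 to 2948. A second Kcnj10 probe set overlapped at 0.59. Slc14a1, a urea transporter, was likewise low on array 34 alone, with a signal of 174 against 465 to 744 on the other arrays of its run.

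Hspb1, a small heat shock protein found in reactive astrocytes, had 4 probe sets, which disagreed. The one with the highest mean over the 31 cortex arrays overlapped at 0.07, while the others were higher by 2.85, 1.88 and 1.75. The one named by the rule read 7402, 11357, 8821 and 5389 on arrays 37 to 40, and 2367, 2387, 2896 and 1916 on 33 to 36. The remaining chaperones differed little: of 21 heat shock and unfolded protein genes, 1 (Hmox1) met the rule, with a median of 0.13, and Hspa1a differed by 0.89 with overlap.

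The region just before the start of Hspb1 is shown because the binding site of heat shock factors is built from inverted GAA units, and that of Spp1 because it had the largest difference. Both are from RefSeq (build GRCr8), 250 bases 5′ to 3′ ending at the base before the annotated start, at chr12:26432302-26432551 (minus strand) for Hspb1 and chr14:5619805-5620054 (minus strand) for Spp1. Capitals mark GAANNTTC, a motif that reads the same on both strands.
Hspb1: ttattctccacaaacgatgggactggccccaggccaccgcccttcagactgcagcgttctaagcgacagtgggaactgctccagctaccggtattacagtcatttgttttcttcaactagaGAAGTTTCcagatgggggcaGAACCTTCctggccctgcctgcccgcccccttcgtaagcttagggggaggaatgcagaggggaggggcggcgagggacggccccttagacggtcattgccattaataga
Spp1: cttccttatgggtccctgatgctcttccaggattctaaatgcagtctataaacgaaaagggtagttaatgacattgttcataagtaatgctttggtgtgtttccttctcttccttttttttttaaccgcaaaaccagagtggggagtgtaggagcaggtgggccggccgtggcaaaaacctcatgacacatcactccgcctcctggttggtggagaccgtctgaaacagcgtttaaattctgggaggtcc
Hspb1 held 2 copies, which begin 129 and 109 bases before the start, and the Spp1 window held 0. Promoters were found in the table for 23 of the 34 higher genes (24 promoters), and 5 of the 24 held the motif (20.8%), against 7.23% of all 33469 promoters in it. Hspb1, which prompted the choice of motif, is among the 5. The genes were themselves chosen by their values, and an excess of the motif was not tested. A match describes letters and is not a measured binding site.

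Chemokine, stress and lipid genes included several of the largest differences. Ccl2, which attracts monocytes, had 2 probe sets past the rule: the one with the larger difference read 2156, 1835, 1801 and 1439 on arrays 37 to 40, and 245, 120, 571 and 394 on 33 to 36, 2.49 log2 units apart. The other differed by 2.01. Of 26 cytokine and chemokine genes, Ccl2 alone met the rule, 5 were higher without overlap and 1 lower. Cxcl10 (0.89), the interleukin-6 family cytokine Lif (0.85) and Il18 (0.62) did not overlap, while Ccl3 (0.24), Ccl4 (0.29) and Il1b (0.50) overlapped. The lower one was the neuronal chemokine Cx3cl1 (−0.35).

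Hmox1, the haem-degrading enzyme haem oxygenase 1, read 3839, 4356, 3501 and 5228 on arrays 37 to 40, and 1387, 1204, 2595 and 1550 on 33 to 36. Its other probe set read 1165, 1029, 1173 and 2275, against 89.3, 198, 481 and 210. Both were highest on array 40 and both separated the runs, by 1.38 and 2.44. Gpx1, which reduces peroxides with glutathione, was 1.12 higher in 1 probe set and 0.97 in another.

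Plin2, the coat protein of lipid droplets, read 1012, 3175, 884 and 960 on arrays 37 to 40, and 251, 643, 663 and 288 on 33 to 36. Array 38 stood far above the others, and the difference of 1.62 was 1.18 without it. A second probe set was below the floor on all 8 arrays and gives no difference. Tspo, a mitochondrial outer membrane protein used as an imaging target for glial activation, was steadier, with 1782, 1647, 1838 and 1879 against 748, 748, 989 and 958. Isoc2b, a little-studied hydrolase-like protein, read 666, 698, 672 and 703 on 37 to 40, and 128, 389, 135 and 366 on 33 to 36, while contralateral arrays ran from 53 to 654, around the lower run and just short of the lowest of 37 to 40.

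Matrix genes were moderately higher. Of 33 measured, Spp1, Cd44 and Timp1 met the rule and 7 were higher without overlap, with a median of 0.20. Fibronectin Fn1 (0.62), the plasminogen activator Plau (0.82) and Timp3 (0.69) did not overlap, whereas the collagens Col1a1 (0.26) and Col1a2 (−0.01) and the gelatinase Mmp9 (0.54) overlapped. Lox, which cross-links collagen, read 1101, 1554, 832 and 916 on arrays 37 to 40, and 335, 378, 497 and 587 on 33 to 36. Its other probe sets were 0.87 and 0.69 higher without overlap and 0.22 with overlap. H19, an imprinted non-coding RNA that is abundant in fetal tissue, read 1774, 3260, 2011 and 1921 against 113, 193, 1188 and 516, a difference of 2.50 in which array 35 again lay closest. Cavin3 (caveola coat, 1.11) and Crispld2 (a secreted protein, 1.15) completed the higher genes, and the 10 unnamed probe sets were 1.13 to 2.08 higher.

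Some cell cycle genes were higher. Of 21 measured, Cdk1 and Top2a met the rule and 6 were higher without overlap, beside 0.698% and 4.06% of all probe sets. The others of the 6 were the replication factors Mcm6 (0.78) and Pcna (0.47), cyclin D1 Ccnd1 (0.46) and Cdk4 (0.36). Cdk1, the kinase that starts mitosis, read 576, 597, 485 and 713 on arrays 37 to 40, and 204, 219, 297 and 236 on 33 to 36, where the levels were near the floor. Top2a, the topoisomerase of dividing cells, read 1561, 1535, 1420 and 2069, against 756, 672, 759 and 936, and all 3 of its probe sets met the rule. These probe sets of both genes were highest on array 40, while the 2 dimmer Top2a probe sets were highest on array 37, at 530 and 754. Ccnb1 (0.06) and Plk1 (0.04) overlapped, as did the cell cycle inhibitor Cdkn1a at −1.0.

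The upstream regions of these 2 genes are shown because promoters of mitotic genes are known for repeated CCAAT boxes. They are again the 250 bases before the start from RefSeq (GRCr8), at chr10:84473094-84473343 (minus strand) for Top2a and chr20:19265043-19265292 (plus strand) for Cdk1, with capitals marking CCAAT or its other strand, ATTGG.
Top2a: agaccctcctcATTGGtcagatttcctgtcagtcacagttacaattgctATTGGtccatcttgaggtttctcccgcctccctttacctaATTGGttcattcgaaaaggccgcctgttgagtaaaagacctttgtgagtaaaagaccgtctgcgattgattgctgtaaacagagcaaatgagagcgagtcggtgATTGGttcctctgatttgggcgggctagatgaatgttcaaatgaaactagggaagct
Cdk1: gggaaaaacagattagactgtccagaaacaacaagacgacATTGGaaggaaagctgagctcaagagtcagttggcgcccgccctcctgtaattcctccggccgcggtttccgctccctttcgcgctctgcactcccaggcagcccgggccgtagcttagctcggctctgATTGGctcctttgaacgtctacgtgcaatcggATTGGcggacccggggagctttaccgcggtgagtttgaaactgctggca
Top2a held 4 copies, beginning 57, 161, 201 and 239 bases before the start, and Cdk1 held 3, at 49, 81 and 210. Over the 24 promoters of higher genes the motif occurred in 9 (37.5%), close to the 34% of all promoters in the table.

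Genes lower on arrays 37 to 40 were few, and their levels varied. Hes5, a Notch target and repressor of neuronal differentiation, read 160, 167, 446 and 177 on arrays 37 to 40, and 832, 805, 732 and 652 on 33 to 36. All 4 arrays of the first run lay below the lowest contralateral value of 454, with array 39 just under it. Arrays 37, 38 and 40 were below the floor, so the difference of −1.70 depends on it and was −1.81 with the floor at the 10th percentile. A second, brighter probe set was −0.68 without overlap.

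Several cholesterol synthesis genes were lower. Of 21 lipid metabolism genes, 5 were lower without overlap and 1 higher, 16 had a negative difference and the median was −0.19. In contralateral cortex at 24 h, arrays 45 to 48 minus 41 to 44, 16 of the 21 were likewise negative, with a median of −0.13 and 0 without overlap. Idi1, an enzyme of the isoprenoid step, read 3022, 2153, 2086 and 2256 on arrays 37 to 40, and 3914, 7412, 4618 and 4249 on 33 to 36. Sqle (−0.48), Dhcr7 (−0.55), the desaturase Scd (−0.57) and the brightest probe set of Cyp51 (−0.46), all enzymes of sterol or fatty acid synthesis, were lower without overlap. Another Cyp51 probe set met the 2-fold rule at −1.51, but its levels of 147, 276, 75 and 340 against 604, 778, 580 and 779 reached the floor on 2 arrays, and 3 further ones differed by −0.42, −0.26 and −0.11 with the arrays overlapping. A second Idi1 probe set was at the floor on 3 arrays of 37 to 40 and all 4 of 33 to 36 and gives no difference. The higher gene was Fabp7, a fatty acid carrier of radial glia and astrocytes, at 0.78.

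Slc22a6, an organic anion transporter, was lower by 1.47 log2 units, and Apoc3, an apolipoprotein of the liver, by 1.03 in 1 probe set. Slc22a6 was below the floor on arrays 37 and 38, so its difference depends on it. This Apoc3 probe set read 189, 264, 536 and 668 on arrays 37 to 40, so that arrays 39 and 40 lay near the 669 to 838 of arrays 33 to 36. Its difference was −0.71 without array 37. A brighter Apoc3 probe set overlapped at −0.05. Neither gene had all 4 arrays of 37 to 40 outside the contralateral range.

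Neuronal and myelin transcripts differed little. Of 25 neuronal and synaptic genes, 17 had a negative difference, 3 were lower without overlap (Gap43, Syp and Nrgn, −0.12 to −0.20), 0 met the 2-fold rule and the median was −0.10. The count of negative differences was much the same elsewhere, with 19 of the 25 in contralateral cortex at 24 h, 16 in ipsilateral and 15 in contralateral cortex at 4 h. Their summed signal was 500191 to 526094 on arrays 37 to 40 and 545507 to 583055 on 33 to 36, with a lowest contralateral sum of 491516. All 11 oligodendrocyte and myelin genes had a negative difference with a median of −0.20, of which 1 (Cspg4, −0.13) did not overlap, and their summed signals overlapped at 180821 to 213277 and 176534 to 266205. Gabra5, a GABA-A receptor subunit, was −0.69 without overlap in 1 probe set and −0.05 with overlap in another. The calcium buffer Calb2 was −0.34 without overlap, and the activity-regulated factor Nr4a1 −0.58 with overlap.

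Of 35 cytosolic ribosomal protein genes 34 had a positive difference, with a median of 0.16, though 0 met the 2-fold rule and 5 did not overlap. Examples were Rpl22 (0.31) and Rpsa (0.28), both with overlapping arrays. Respiratory chain genes went the other way in 19 of 22, with a median of −0.09. These shifts were small beside the 0.63 and 0.65 of the phagocyte and reactive astrocyte lists.

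**Figure D4:**
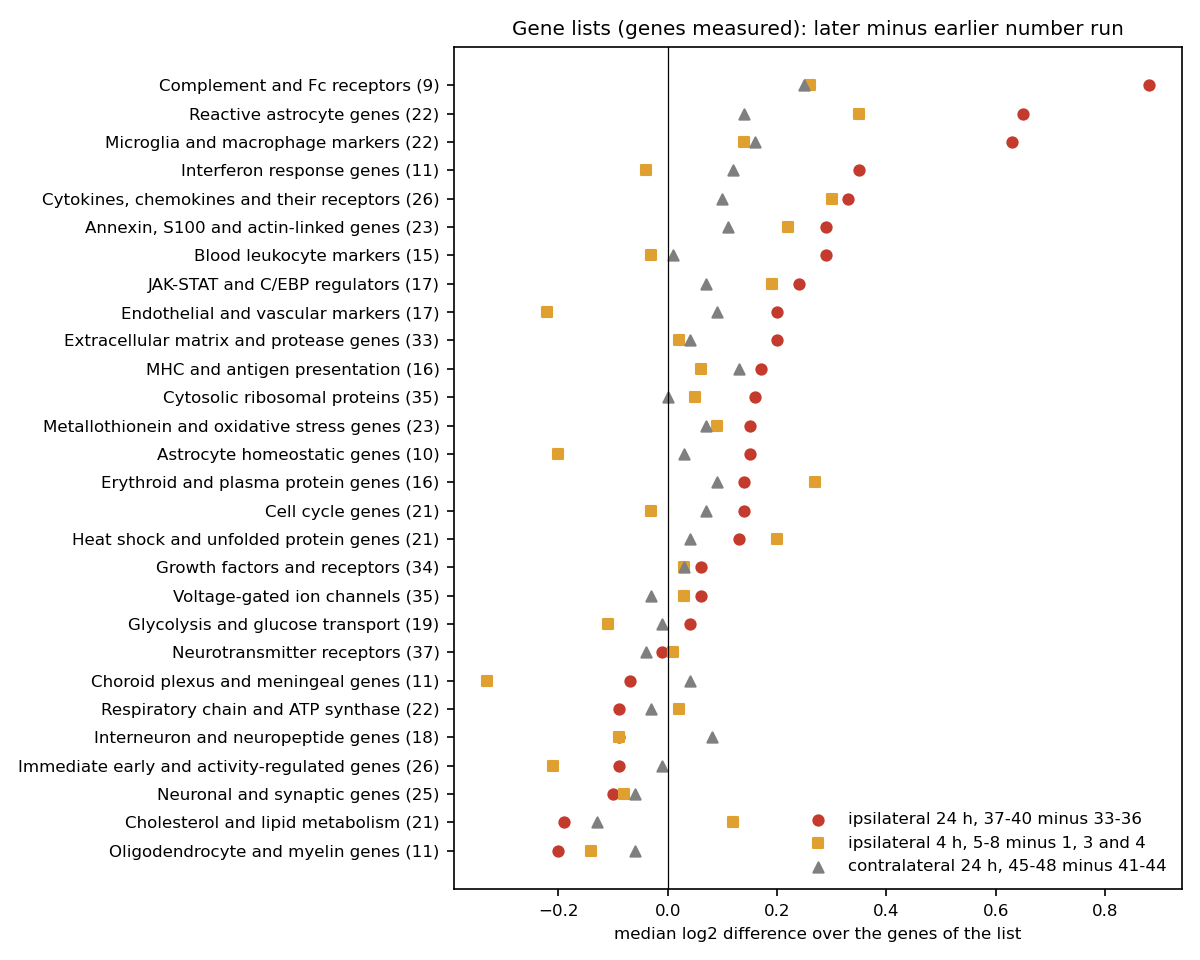
Median log2 difference over the measured genes of each list (their number in brackets), higher-numbered run minus lower-numbered run, for ipsilateral cortex at 24 h (red circles), ipsilateral cortex at 4 h (orange squares) and contralateral cortex at 24 h (grey triangles). At 24 h on the ipsilateral side the complement (0.88), reactive astrocyte (0.65) and microglia (0.63) lists stand highest and the cholesterol (−0.19) and myelin (−0.20) lists lowest. The complement and microglia lists share genes, C1qb and Fcgr2b among them.

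Markers of other sources of RNA were measured beside these groups. Of 15 blood leukocyte genes 13 had a positive difference, with a median of 0.29. Contralateral cortex at 4 h likewise had 13 positive, with a median of 0.20. Contralateral cortex at 24 h had 8 (median 0.01) and ipsilateral cortex at 4 h had 7 (median −0.03). At 24 h on the ipsilateral side 0 of the 15 met the 2-fold rule and 2 (Gzmb 0.45 and Cd37 0.39) did not overlap. Their summed signal was 7642 to 8495 on arrays 37 to 40 and 6341 to 6871 on 33 to 36, with 5955 to 8454 over the contralateral arrays at 24 h. The neutrophil gene S100a8 was at the floor on 2 arrays of 37 to 40 and on all 4 of 33 to 36, and its partner S100a9 on 2 and 3. Plasma and erythroid genes differed by a median of 0.14, with haemoglobin Hbb at 0.15 and albumin Alb at −0.04. Choroid plexus genes varied widely: Ttr, their main product, read 1294, 785, 2251 and 4311 on arrays 37 to 40 and 31577, 21880, 35309 and 1768 on 33 to 36, and contralateral arrays ran from 623 to 48399. The summed signal of 11 choroid plexus and meningeal genes was 40978 to 49473 on arrays 37 to 40 and 50586 to 85586 on 33 to 36, without overlap. Contralateral sums at 24 h were 50388 to 102429, all above those of arrays 37 to 40. The part of leukocytes, choroid plexus and of the median signal per array in the differences was not tested.

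Groups of arrays outside that choice gave the tests. Contralateral cortex at 24 h was compared between arrays 45 to 48 and 41 to 44 with limma over all 31 cortex arrays, and 0 of 7592 probe sets passed (0%) after Benjamini-Hochberg adjustment, with 210 at an unadjusted p under 0.05. The smallest p-values belonged to Eif2b3 (0.52), a translation initiation factor subunit, Ssr4 (−0.48), a secretory pathway protein, and C1qb (0.54, SE 0.16), each with a limma adjusted p of 1. Of the 53 higher probe sets 45 had a positive difference here, with a median of 0.28, beside 0.01 over all probe sets. The share of positive differences over all probe sets is not given here or for the 4 h groups. Hspb1, Vim and C1qb had their highest contralateral signals at 3887, 7341 and 4998, below every array of 37 to 40.

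Ipsilateral cortex at 4 h was compared between arrays 5 to 8 (n = 4) and arrays 1, 3 and 4 (n = 3) in the same fit. In all 36 probe sets were higher (0.474%) and 12 lower (0.158%). Of the 59 probe sets described at 24 h, 6 passed at 4 h (10.2%), all higher at both times, and they name 5 genes: Timp1, Ccl2, Lcn2, Lgals3 and Hmox1. These runs of numbers were set out with earlier results of the 4 h arrays known, and their p-values reflect no more than the spread from array to array.

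Ccl2 read 2814, 1277, 3113 and 2674 on arrays 5, 6, 7 and 8, and 133, 668 and 570 on arrays 1, 3 and 4, a rise of 2.50 log2 units (SE 0.39, limma adjusted p = 0.000596). Lcn2 read 1074, 652, 735 and 1111, against 298, 178 and 170, a rise of 2.0 (SE 0.31, limma adjusted p = 0.000472). Hmox1 read 4191, 3417, 3152 and 3966, against 794, 1854 and 1390, a rise of 1.53 (SE 0.26, limma adjusted p = 0.00201). The runs did not overlap in any of these genes. Lcn2 was below the floor on arrays 3 and 4, and Ccl2 on array 1, so the size of these 2 rises depends on it. A second Hmox1 probe set differed by 1.52 (SE 0.38) and did not pass (limma adjusted p = 0.0571).

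Timp1 read 1986, 1110, 1123 and 2022 on arrays 5 to 8, and 66.4, 172 and 445 on arrays 1, 3 and 4, a rise of 2.59 (SE 0.50, limma adjusted p = 0.00949). Arrays 1 and 3 were below the floor, so the size of this rise depends on it. The brighter Timp1 probe set differed by 0.85 (SE 0.28) and did not pass (limma adjusted p = 0.229). Lgals3 rose by 1.56 (SE 0.36, limma adjusted p = 0.035), with 1354, 1101, 929 and 1259 against 236, 554 and 454. These calls rest on the spread shared over the cortex arrays: of the 6 probe sets, 0 passed in a fit on the 7 arrays of the comparison alone, 1 (Hmox1) with all 47 arrays and 2 (Hmox1 and Ccl2's second probe set) with the floor at the 10th percentile. Of 13 alternative fits, Lgals3 passed in 4, Ccl2's second probe set (2.01, limma adjusted p = 0.0212) in 6, Timp1 in 9, Lcn2 and the first Ccl2 probe set in 10 each, and Hmox1 in 12.

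Several genes with large differences at 24 h did not pass at 4 h. Spp1 read 1351, 928, 588 and 532 on arrays 5 to 8, and 151, 432 and 383 on arrays 1, 3 and 4, without overlap, and its difference of 1.34 (SE 0.38) had a limma adjusted p of 0.125. Anxa1 differed by 0.81 (SE 0.21, limma adjusted p = 0.075), Vim by 0.40 (adjusted p = 0.589), C1qb by 0.24 (0.718), Top2a by −0.20 (0.848) and Cdk1 by −0.28 (0.806). Of the 53 higher probe sets 41 had a positive difference at 4 h, with a median of 0.53 against 1.37 at 24 h. Over all probe sets the median at 4 h was −0.01. Whether the differences at the 2 times differ from each other was not tested, since the 24 h values chose the members.

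**Figure D5:**
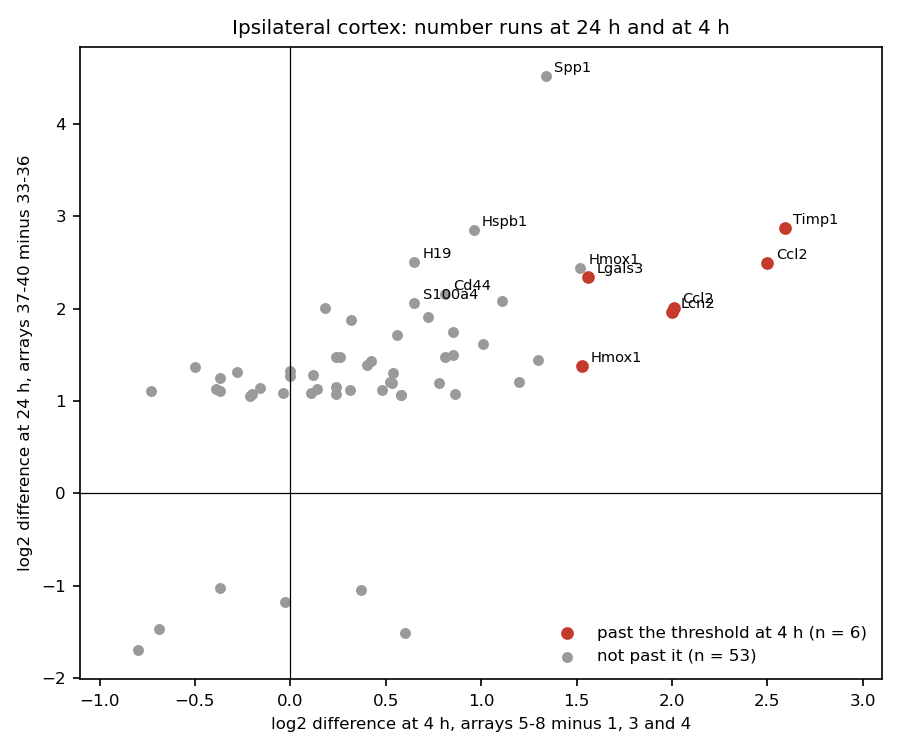
Difference at 24 h (arrays 37 to 40 minus 33 to 36, vertical axis, log2 units) against that at 4 h (arrays 5 to 8 minus 1, 3 and 4, horizontal axis, log2 units) in ipsilateral cortex for the 59 probe sets chosen at 24 h. Red points (n = 6) passed limma's threshold at 4 h; Spp1 lies at 4.52 and 1.34 and is not among them.

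Timp1 and Ccl2 were among the largest changes at 4 h, beside genes that did not meet the rule at 24 h. Cebpd, a transcription factor of the acute phase response, rose by 2.75 (SE 0.23, limma adjusted p = 1e-08), and the chemokine Ccl3 by 2.47 (SE 0.28, limma adjusted p = 5.24e-06), both with arrays 1, 3 and 4 all at the floor, so that the fold depends on it. At 24 h the same probe sets, still close to the floor at a mean of 7.77 and 7.82 log2 signal on arrays 37 to 40, differed by 0.23 and 0.24 with overlap. A brighter Cebpd probe set rose by 1.54 at 4 h (SE 0.31, limma adjusted p = 0.0143) and was 0.83 higher at 24 h without overlap, at 10.05 ± 0.11 on arrays 37 to 40 and 9.22 ± 0.42 on 33 to 36 (SD, n = 4 each). Hes5 fell by 1.23 (SE 0.27, limma adjusted p = 0.0214) in the probe set that was 0.68 lower at 24 h, and Egr1, an activity-regulated transcription factor, fell by 0.88 (SE 0.14, limma adjusted p = 0.000794). Hipk3, Mpv17l and Dusp6 fell by 0.91, 0.87 and 0.78. Of the 36 probe sets higher at 4 h, 28 were positive at 24 h and 6 met its rule.

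Contralateral cortex at 4 h, arrays 13 to 16 against 9 to 12, had 2 probe sets higher (0.0263%), neither with a single gene name, and 4 lower (0.0527%): Ccnd2, Cspg5, Egr1 and 1 unnamed. Of these, Egr1 (−0.75, SE 0.14, limma adjusted p = 0.0217) and Cspg5, a neural proteoglycan (−0.63), also fell on the ipsilateral side at 4 h, by 0.67 and 0.58 in the same probe sets. These 6 calls became 0 with the arrays of the comparison alone and 0 with all 47 arrays. None of the 59 probe sets passed here, and the 53 higher ones had a median difference of 0.16 with 38 positive, beside a median of 0.02 over all probe sets.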

How the data were processed

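Total RNA of rat brain was hybridised to oligonucleotide arrays, 1 array per sample. The authors deposited 1 table of signal intensity per probe set and array; the software behind it was not given in the sources used here. Trimmed means (2% off each end) were 2502.9 to 2503.6 on all 47 arrays, so the deposited intensity values were already scaled, and no further normalization was applied. The 59 control probe sets were dropped, intensities were floored at the 25th percentile, log2 was taken, and a probe set was kept where at least 4 of the 31 cortex arrays exceeded the floor. Gene symbols came from the platform annotation, updated by gene ID against RefSeq (6157 of 6175 tested probe sets matched). Probe sets with several genes (308 of all 8799) or none (1473) were not named. The number of arrays limits the precision.

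Samples were grouped by the side, region and time of the labels and by extraction number. Members, gene lists and number runs were chosen with earlier results of these data known. The named genes were the 20 largest positive and 15 largest negative differences that met the count rule, and up to 4 members per list, each gene by its brightest probe set past the rule; lists used the brightest probe set of each gene. Other genes that met the rule are given by value. Tests were linear models of 8 cortex group means with limma 3.58.1 (R 4.3.3; intensity trend, two-sided, Benjamini-Hochberg over 7592 probe sets, threshold 0.05). The fit was tested on simulated data, where the share of false calls was above the threshold in most runs. Other computations used Python 3.11.15 with pandas 2.3.3. Extraction numbers occur once each, so no pairing was used.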

Additional observations from a re-analysis of the deposited data

Results flagged for a closer look

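Of 72 groups of 4 arrays checked for an array far from its group, 7 held one; chance gives about 1 in 20. On array 38, S100a4 had 11.42 log2 signal where the next array of 37 to 40 had 10.96, and Plin2 had 11.63 where the next had 9.98. The median signal of array 38 was 795 where the next of its run had 790. On array 39, Gpx1 had 13.14 where the next had 12.82, Hes5 had 8.80 where the others were at the floor, at 7.54, and Slc22a6 had 8.39 where the next had 7.59. On array 35, Fcgr2b had 8.17 where the next array of 33 to 36 had 7.58.

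Plin2 had differences of opposite sign on the 2 sides at 24 h, but the contralateral one was smaller than its SE. It was −0.27 (SE 0.42) for arrays 45 to 48 minus 41 to 44. All 4 of arrays 45 to 48 lay below the mean of 41 to 44, and the runs overlapped. The ipsilateral difference was 1.62. That contrast between the sides was not tested.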

How the results depend on the processing

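Of 352 values of 32 named genes at 24 h under the alternatives, 349 kept within the spread between arrays and 0 changed sign. Leaving out 1 array could not change a sign, because these genes were chosen for runs that do not overlap. The 3 that moved did so with the floor at the 10th percentile (C3 to 3.23, Cyp51 to −1.92, Slc22a6 to −2.03), which lets dim signals count. The counts at 24 h were 92 higher and 13 lower with that floor, 143 and 18 with a minimum of 1.5-fold, 308 and 140 with no minimum, 46 and 7 after quantile normalization, and 57 to 67 and 7 to 9 on leaving out 1 array, which eases the rule. At 4 h on the ipsilateral side the 48 calls became 26 with the 10th percentile floor, 2 with the 7 arrays alone, 26 with all 47 arrays, 24 with array weights, and 21 to 58 on leaving out 1 array (21 without array 1, 27 without array 8). The contralateral 6 calls at 4 h became 0 with its own arrays alone and 0 with all 47, and 2 to 13 on leaving out 1 array (2 without array 13, 3 without 9 or 11, 13 without 12). Contralateral calls at 24 h stayed at 0, with 0 to 1 on leaving out 1 array (1 without array 48) and a smallest adjusted p of 0.153 with array weights. The cause of these shifts was not tested. Dim signals limit the values near the floor: 18 of the 53 higher probe sets had at least 1 array of 33 to 36 there, 2 had all 4. No paired analysis was possible because extraction numbers occur once each.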
